A study of Homo sapiens with 6 samples.

Results

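The 40 genes described here build or control the epithelial state of a cell. They were taken from a fixed list of symbols that was chosen with earlier results of these data known. All 40 were matched among the 60612 Ensembl genes of each table through GENCODE symbols. Of these, 33 are epithelial genes (3 of adherens junctions, 8 of desmosomes and plakins, 10 of tight junctions, EPCAM, 5 regulators and 6 keratins) and 7 are mesenchymal genes (5 transcription factors of the epithelial-mesenchymal transition, EMT, and the structural genes CDH2 and VIM). The study overexpressed SNORA28, an H/ACA-class small nucleolar RNA, in the human colorectal carcinoma line HCT116, an established cell line. One group of 3 libraries came from cells given the control lentivirus LV-NC and the other group of 3 from cells given the lentivirus LV-SNORA28, with RNA taken at 72 h of infection per the study's methods. The vector was GV235 in the study's methods, and both groups share the parental line and the infection itself. The comparison asks whether these genes differed in RNA level when SNORA28 was overexpressed. The labels do not say whether the replicates were separate cultures, so each p-value measures only the spread between these libraries.

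Epithelial cells hold together through 3 kinds of contact. Adherens junctions join cadherins to actin through catenins, desmosomes join their own cadherins to keratin filaments through plakoglobin, plakophilins and plakins, and tight junctions seal the space between cells with claudins and occludin. In EMT, factors of the SNAI, ZEB and TWIST families repress genes such as CDH1, and vimentin and N-cadherin appear as keratins and E-cadherin decline. ESRP, GRHL and OVOL proteins act on the epithelial side of this switch.

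Levels are FPKM, the authors' fragment values corrected for transcript length and library total. Differences are LV-SNORA28 minus LV-NC of log2(FPKM + 1), a scale on which low genes appear to change less than they do, and a gene was called at a limma adjusted p below 0.05. The targeted gene SNORA28 (ENSG00000272533, chromosome 14, 103337849 to 103337974, plus strand) stood at 0.92, 0 and 0.64 FPKM in LV-NC against 15.01, 13.66 and 15.2 FPKM with LV-SNORA28. The difference was 3.41 ± 0.23 (SE, n = 3 per group, limma adjusted p = 0.00228). The libraries were of poly(A) RNA, and whether these values give the level of the mature small nucleolar RNA was not tested. SNORA28 lies inside the gene EIF5 on the same strand, which stood at 8.56 to 16.88 FPKM in LV-NC against 13.8 to 17.86 FPKM in LV-SNORA28 with overlapping groups. Mitochondrially encoded genes took 42.9%, 47.7% and 42.7% of summed FPKM in LV-NC against 38.3%, 37.8% and 35.9% in LV-SNORA28. That share moved with the group, and its part in any single difference was addressed only by rescaling without those genes, which kept both calls reported among the members.

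The epithelial label held for the surface and keratin genes but only in part for intestinal identity. Of 10 markers of a colorectal epithelial line, EPCAM, KRT8, KRT18, CDH1 and CDX2 had a mean of at least 1 FPKM. The other 5 (VIL1, CDH17, CDX1, LGR5 and ASCL2) stayed below 0.1 FPKM, with CDX1 and ASCL2 at 0 in every library. Summed over the 10 markers, the level was 381 to 439 FPKM in LV-NC against 426 to 433 FPKM with LV-SNORA28. Of the markers of other cells, 6 of 7 for fibroblasts, 4 of 5 for leukocytes and 4 of 4 for endothelium had a mean below 0.1 FPKM. Of those, CD79A and LYZ reached 0.16 FPKM in LV-SNORA28 replicate 1. The exceptions were COL1A1, and CD68 at 2.07, 2.06 and 0.95 FPKM in LV-NC against 2.27, 4.12 and 3.14 FPKM with LV-SNORA28.

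Most epithelial members differed little between the groups, as did most genes tested, and 2 members rose. Of 33 members with a mean of at least 1 FPKM (31 epithelial and 2 mesenchymal), ESRP1 and KRT23 were called, that is 6.06%, against 8.91% of all 12076 genes tested. Both were higher, beside 6.81% of all genes called higher, and none of the members was called lower, beside 2.10% of all genes. The share of members called was thus near the background and is no result about the members as a group. In these bulk libraries, fewer cells that express a gene and less of its RNA per cell cannot be told apart. At an unadjusted p below 0.05 the count was 7 of 33 members (21.2%) against a background of 28.0%. At the study's threshold (unadjusted p below 0.05 and more than 1.5-fold), with the fold taken here on FPKM + 1, KRT23 alone passed, against 3.79% of all genes. That scale shrinks the folds of low genes. With a pseudocount of 0.1 in place of 1, 2 members passed, KRT23 and VIM, and 771 genes in all in place of 458.

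The members' differences were of similar size to those of other genes. Their median difference was 0.0291, with 21 members above and 12 below 0, while the median over all genes tested was 0.0851 with 66.7% of genes above 0. The median size of the difference, sign ignored, was 0.133 over the members and 0.154 over all genes. The 3 libraries of one group lay wholly above or below those of the other in 10 of 33 members (30.3%), against 35.1% of all genes. In 27 of 33 members (81.8%) the 95% interval of the difference lay within 1.5-fold in both directions, against 75.0% of all genes. The 6 members whose intervals reached further were EVPL, CLDN7, F11R, KRT23, KRT80 and VIM. With a pseudocount of 0.1 in place of 1, 25 of 33 members lay within 1.5-fold.

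**Figure D1:**
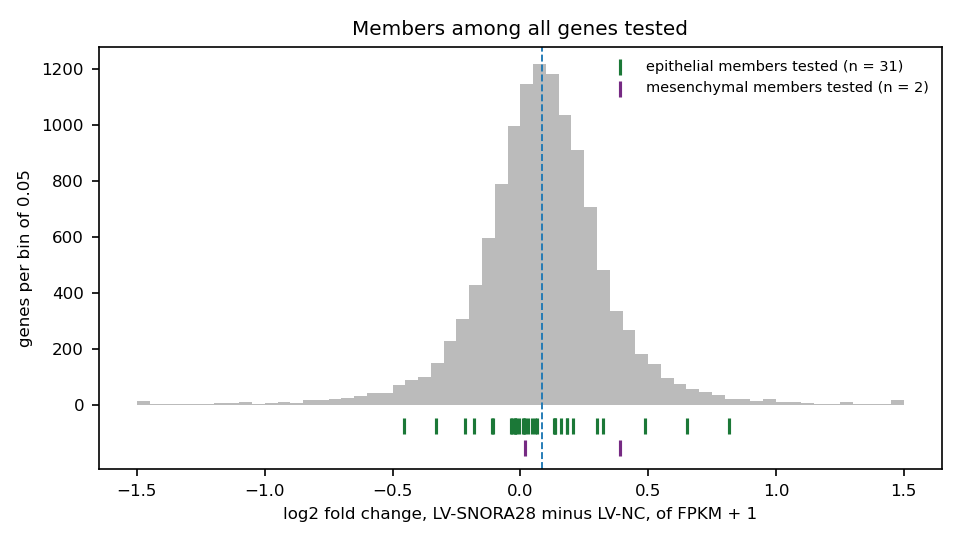
The grey bars count all 12076 genes tested by log2 fold change (LV-SNORA28 minus LV-NC, FPKM + 1) in bins of 0.05, with values beyond 1.5 placed in the end bins, and the dashed line marks their median of 0.0851. The ticks below mark the 31 epithelial and 2 mesenchymal members tested, most of which sit in the body of the distribution, with F11R at 0.81 farthest to the right and KRT80 at -0.45 farthest to the left.

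The members spanned nearly the whole range of expression. KRT19, the smallest type I keratin, was the highest at a mean of 381 FPKM, rank 67 of the 12076 genes tested, and alone made 29.2% to 32.8% of the summed FPKM of the 33 epithelial members. KRT18, KRT8 and EPCAM followed at ranks 171, 193 and 264. At the other end ZEB2 and CDH2 did not exceed 0.04 FPKM in any library. The summed epithelial level was 1199, 1255 and 1211 FPKM in LV-NC against 1261, 1291 and 1223 FPKM with LV-SNORA28, so the groups overlapped. The summed mesenchymal level, over 7 genes, was far lower in both groups. It was 11.06, 9.96 and 9.83 FPKM in LV-NC against 11.13, 10.57 and 11.28 FPKM with LV-SNORA28, and these overlapped too. SNAI1 alone made most of that sum, at 8.65, 7.79 and 7.25 FPKM in LV-NC against 8.47, 7.51 and 8.05 FPKM with LV-SNORA28. The overlap therefore says little about lower genes such as VIM.

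**Figure D2:**
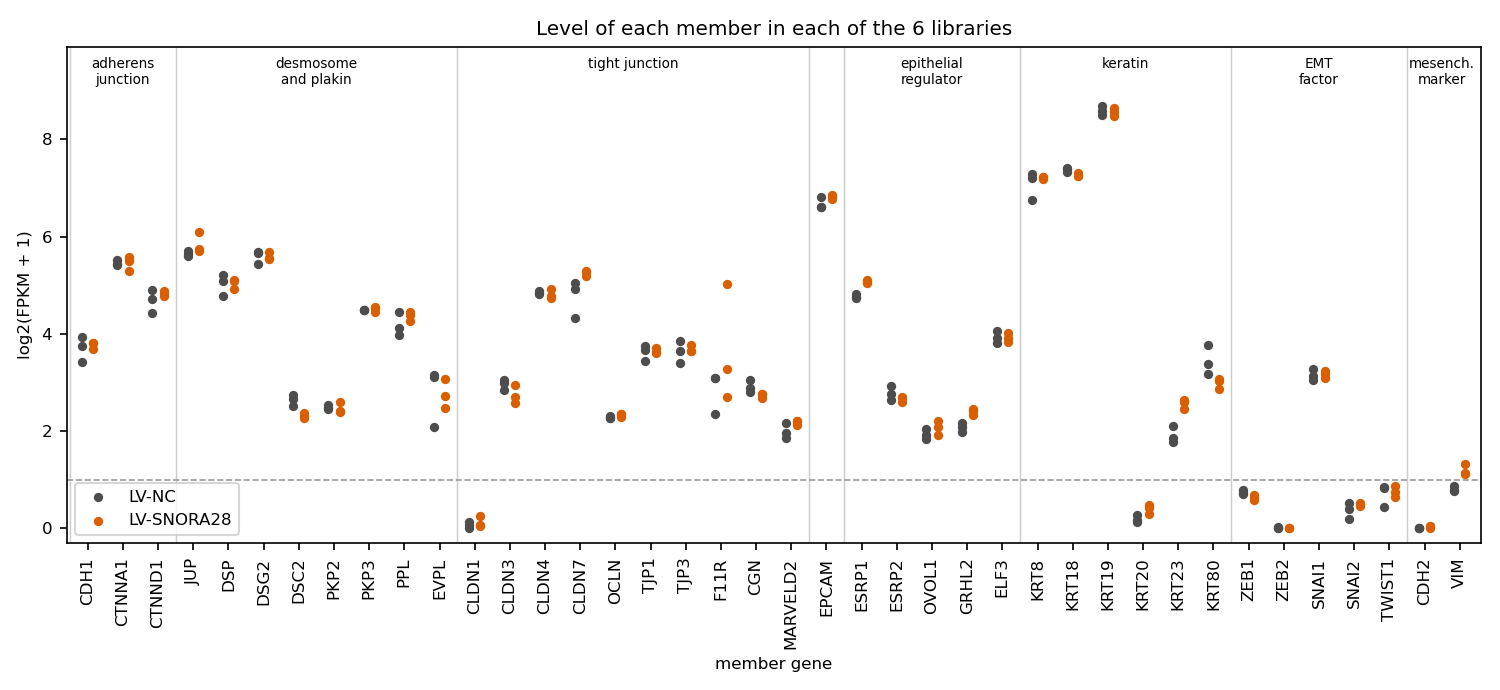
Each point is 1 library, with the 40 members along the horizontal axis grouped by role and log2(FPKM + 1) on the vertical axis (grey LV-NC, orange LV-SNORA28, dashed line at 1 FPKM). Keratins 8, 18 and 19 and EPCAM are the highest members, and CLDN1, KRT20, ZEB1, ZEB2, SNAI2, TWIST1 and CDH2 lie below the dashed line in every library.

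Promoter windows are shown because several members are textbook targets of SNAI and ZEB factors, which bind the letters CAGGTG. The motif was searched as CACCTG or CAGGTG, which are the same letters read from either strand and a subset of the E-box CANNTG. RefSeq promoter windows (GRCh38.p14, 250 bases before to 50 bases after a start) were found for 21 of 40 members, in 39 windows. The members without an entry were CDH1, CTNND1, PKP2, PKP3, PPL, EVPL, F11R, EPCAM, ESRP1, ESRP2, OVOL1, GRHL2, KRT18, KRT19, KRT23, KRT80, SNAI1, SNAI2 and TWIST1. The motif was in 14 of 39 member windows (35.9%), belonging to 12 members, and in 7231 of 35116 windows of all genes (20.6%). The wider CANNTG was in 64.1% of member windows and 68.7% of all windows. The windows of CLDN7, ZEB1, OCLN, DSP, JUP and DSG2 held 2 or more matches, as did 3.49% of all windows, and CLDN7 held 5, as did 0.094% of all windows. The 30-base stretches below come from those 6 windows, written 5′ to 3′ on the gene's strand with the motif in capitals:
OCLN (chr5:69492645-69492674, plus): tctaggacgcagCAGGTGggactcgcggcg
DSP (chr6:7541481-7541510, plus): gggcggcgggcgCAGGTGgggaggggcggc
ZEB1 (chr10:31319119-31319148, plus): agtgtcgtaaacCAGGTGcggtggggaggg
CLDN7 (chr17:7262463-7262492, minus): cgcccCACCTGtccgcccgCACCTGctggc
JUP (chr17:41786008-41786037, minus): ctggcccCACCTGccgagCAGGTGagcgca
DSG2 (chr18:31497933-31497962, plus): acgtcacggtccCAGGTGcgagtgcgagcg
The CLDN7 and JUP stretches hold 2 matches each, on opposite strands in JUP. In CLDN7 the matches of the whole window began at -174, -135, -20, -9 and +6 from the start. A match is a description of letters and not a bound site, and no binding was measured here.

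Of the adherens junction genes, none of 3 was called, beside 8.91% of all genes tested. All 3 intervals lay within 1.5-fold, as did 75.0% of all genes. CDH1 encodes E-cadherin, the cadherin that bridges neighbouring cells. It stood at 14.38, 9.65 and 12.51 FPKM in LV-NC against 13.03, 11.95 and 13.0 FPKM with LV-SNORA28. All 3 LV-SNORA28 values fell inside the LV-NC range, and the difference was 0.07 ± 0.14 (SE, limma adjusted p = 0.79, 95% interval -0.26 to 0.39). CTNNA1, the α-catenin that links cadherin complexes to actin, stood at 41.56 to 44.79 FPKM in LV-NC against 38.41 to 46.76 FPKM with LV-SNORA28 and differed by 0.0094 (interval -0.19 to 0.21). CTNND1, the p120-catenin that holds cadherins at the membrane, stood at 20.47 to 28.86 FPKM in LV-NC against 26.52 to 28.66 FPKM in LV-SNORA28 and differed by 0.16 (interval -0.13 to 0.45), or by 0.029 without LV-NC replicate 3. An overlapping gene on its strand, ENSG00000288534, was highest at 2.39 FPKM in LV-NC replicate 3, where CTNND1 was lowest. The division of reads between CTNND1 and that gene was not tested.

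Of the 8 desmosome and plakin genes, none was called, beside 8.91% of all genes tested. Of their intervals, 7 lay within 1.5-fold, as did 75.0% over all genes. DSG2 and DSC2 encode desmosomal cadherins. DSG2 stood at 50.38, 42.48 and 49.42 FPKM in LV-NC against 46.02, 45.48 and 50.13 FPKM with LV-SNORA28, a difference of -0.0038 (limma adjusted p = 0.981). DSC2, encoded 396 kb from DSG2 on chromosome 18, stood at 5.69, 4.74 and 5.35 FPKM in LV-NC against 3.83, 3.94 and 4.15 FPKM with LV-SNORA28. Every DSC2 value in LV-SNORA28 was below every value in LV-NC, and the difference of -0.33 ± 0.08 (SE) did not pass (limma adjusted p = 0.055, 95% interval -0.52 to -0.14). It passed in 1 of 12 alternatives, quantile normalization of the libraries, at -0.43 (limma adjusted p = 0.0195), and in the other 11 limma adjusted p was 0.0523 to 0.156.

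JUP encodes plakoglobin, which serves both desmosomes and adherens junctions. It stood at 50.83, 48.69 and 47.69 FPKM in LV-NC against 67.67, 53.01 and 51.03 FPKM with LV-SNORA28. No value of one group reached the other, but the highest library lay well apart from the other 5, and the difference of 0.21 did not pass (limma adjusted p = 0.278). Without that library, LV-SNORA28 replicate 1, it was 0.083. The linker desmoplakin (DSP), at 26.45 to 35.82 FPKM over the 6 libraries, differed by 0.02. The plakophilins, which pack desmosomal plaques, differed by -0.02 (PKP2, at 4.26 to 5.02 FPKM) and 0.02 (PKP3). PKP3 had the narrowest interval of these genes, at -0.12 to 0.16 around levels of 20.73 to 22.52 FPKM in all 6 libraries. Of the plakins, PPL (periplakin) stood at 14.82 to 20.72 FPKM in LV-NC against 18.32 to 20.82 FPKM with LV-SNORA28 and differed by 0.18, or by 0.31 without LV-NC replicate 1. EVPL (envoplakin) stood at 7.63, 7.9 and 3.22 FPKM in LV-NC against 5.59, 4.57 and 7.43 FPKM with LV-SNORA28. Its interval of -0.77 to 0.72 was too wide to place the difference.

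Of the 10 tight junction genes 9 were tested and none was called, beside 8.91% of all genes tested. The membrane sealing genes OCLN (occludin) and MARVELD2 (tricellulin), 48.0 kb apart on chromosome 5, differed by 0.05 and 0.18. OCLN lay between 3.8 and 4.12 FPKM in all 6 libraries, and MARVELD2 between 2.62 and 3.48 FPKM in LV-NC against 3.38 and 3.61 FPKM with LV-SNORA28. CLDN4, a barrier claudin, stood at 27.35 to 28.45 FPKM in LV-NC against 25.74 to 29.48 FPKM in LV-SNORA28 (difference -0.04, interval -0.20 to 0.13). Its neighbour CLDN3, 29.3 kb away on chromosome 7, stood at 7.24, 6.89 and 6.23 FPKM in LV-NC against 6.72, 5.5 and 4.97 FPKM with LV-SNORA28, with overlapping groups (difference -0.22). CLDN1 was nearly absent, at 0 to 0.19 FPKM over the 6 libraries.

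CLDN7, a claudin that also lies along the lateral membrane and binds EPCAM, had a larger difference than the claudin members CLDN3 and CLDN4. It stood at 19.08, 32.1 and 29.54 FPKM in LV-NC against 37.65, 35.71 and 38.31 FPKM with LV-SNORA28. No value of one group reached the other, but the LV-NC libraries spread more widely, and the difference of 0.49 ± 0.18 (SE, 95% interval 0.05 to 0.92) did not pass (limma adjusted p = 0.143). Without LV-NC replicate 1, the lowest library, it was 0.27. CLDN7 overlaps ELP5 on the opposite strand, which stood at 13.24 to 14.88 FPKM, and the sources used here do not say whether strand was used in counting.

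The scaffold genes of the tight junction showed small differences. TJP1 (ZO-1), at 9.93 to 12.4 FPKM over the 6 libraries, differed by 0.03, and TJP3 (ZO-3), at 9.6 to 13.49 FPKM, by 0.06. CGN, the cytoplasmic plaque protein cingulin, stood at 7.24, 5.99 and 6.44 FPKM in LV-NC against 5.75, 5.75 and 5.45 FPKM with LV-SNORA28. Those groups did not overlap, and the difference of -0.18 did not pass (limma adjusted p = 0.202). TJP1 overlaps the pseudogene HMGN2P5 on the opposite strand, which had 14.6 to 23.05 FPKM, so reads of both could be mixed if strand was not used.

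F11R encodes the adhesion molecule JAM-A, and 1 library decided its mean. It stood at 7.57, 4.07 and 7.59 FPKM in LV-NC against 8.64, 31.62 and 5.46 FPKM with LV-SNORA28. The second LV-SNORA28 library was far above the other 5, and the difference of 0.81 ± 0.58 (SE, limma adjusted p = 0.413) fell to 0.13 without it. An overlapping gene on the same strand, ENSG00000270149, had 0.55, 4.12 and 0.27 FPKM in LV-NC against 1.04, 0.19 and 6.3 FPKM with LV-SNORA28. It was highest in the 2 libraries where F11R was lowest, and the division of reads between both genes was not tested.

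EPCAM, the epithelial adhesion molecule of carcinoma cells, stood at 96.86, 112.0 and 97.05 FPKM in LV-NC against 109.0, 115.21 and 110.88 FPKM with LV-SNORA28. The groups overlapped through LV-NC replicate 2, and the difference was 0.13 (interval -0.04 to 0.31, limma adjusted p = 0.294).

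Among the 5 epithelial regulators ESRP1 rose. ESRP1 (ENSG00000104413, chromosome 8, 94641074 to 94707466, plus strand) encodes an RNA-binding protein that keeps epithelial splice forms of its targets. It stood at 27.36, 26.14 and 25.85 FPKM in LV-NC against 33.61, 32.74 and 32.13 FPKM with LV-SNORA28. The means were 26.5 ± 0.80 and 32.8 ± 0.74 FPKM (SD, n = 3 each), so the gap was several times the spread within either group. The difference was 0.30 ± 0.05 (SE, limma adjusted p = 0.0253, 95% interval 0.17 to 0.43). The call held without LV-NC replicate 1 (limma adjusted p = 0.0425), and without any 1 of the other 5 libraries limma adjusted p was 0.0721 to 0.094, with differences of 0.28 to 0.32. It was also lost under quantile normalization, at 0.22 (limma adjusted p = 0.0987).

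The paralogue ESRP2 was not called. It stood at 6.57, 5.2 and 5.8 FPKM in LV-NC against 5.53, 5.1 and 5.37 FPKM with LV-SNORA28, with overlapping groups and a difference of -0.11 (interval -0.33 to 0.11). An lncRNA on its strand, ENSG00000262160, overlaps it and had 3.55 to 4.93 FPKM. GRHL2, a transcription factor that maintains junction genes, stood at 3.5, 2.95 and 3.22 FPKM in LV-NC against 4.34, 4.06 and 4.46 FPKM with LV-SNORA28. The values of the groups did not overlap, and the difference of 0.33 ± 0.08 (SE) did not pass (limma adjusted p = 0.0532, 95% interval 0.14 to 0.51). The repressor of EMT factors OVOL1, at 2.55 to 3.6 FPKM over the 6 libraries, differed by 0.13. The epithelial ETS factor ELF3, at 13.13 to 15.76 FPKM, differed by -0.02, and both had overlapping groups.

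Among the 6 keratins 5 were tested and KRT23 rose. KRT23 (ENSG00000108244, chromosome 17, 40922700 to 40937646, minus strand) is a type I keratin of the cluster that also holds KRT20 and KRT19. It stood at 3.31, 2.61 and 2.42 FPKM in LV-NC against 5.24, 4.46 and 5.04 FPKM with LV-SNORA28. The means were 2.78 ± 0.47 and 4.91 ± 0.41 FPKM (SD, n = 3 each) and the groups did not overlap. The difference was 0.65 ± 0.11 (SE, limma adjusted p = 0.0205, 95% interval 0.39 to 0.91), the largest among the members called. The call held without LV-NC replicate 1 (limma adjusted p = 0.0218), and without any 1 of the other 5 libraries limma adjusted p was 0.0559 to 0.0797, with differences of 0.58 to 0.71. It was also lost with no filter on low genes (limma adjusted p = 0.0616).

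KRT20, a marker of differentiated intestinal epithelium encoded 37.5 kb from KRT23, had 0.21, 0.09 and 0.13 FPKM in LV-NC against 0.34, 0.23 and 0.39 FPKM with LV-SNORA28. Those groups did not overlap, but all values were below the filter, and in a fit of all genes above 0 the difference was 0.21 (limma adjusted p = 0.237). KRT19, 586 kb from KRT23, stood at 381.35, 411.55 and 363.33 FPKM in LV-NC against 374.63, 397.48 and 357.67 FPKM with LV-SNORA28. Its groups overlapped and its difference was -0.03 (interval -0.21 to 0.14).

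KRT8 and KRT18 encode the filament pair of simple epithelia, and their genes overlap by 1084 bases on opposite strands of chromosome 12. KRT8 stood at 106.91, 145.61 and 155.08 FPKM in LV-NC against 148.41, 145.4 and 148.25 FPKM with LV-SNORA28. LV-NC replicate 1 was low, the other 5 libraries lay between 145.4 and 155.08 FPKM, and the difference was 0.13 (limma adjusted p = 0.57), or -0.028 without that library. KRT18 stood at 158.92, 167.08 and 168.97 FPKM in LV-NC against 151.7, 156.73 and 150.27 FPKM with LV-SNORA28. Its groups did not overlap, yet the difference of -0.11 was small and did not pass (limma adjusted p = 0.248, interval -0.24 to 0.02). The 51 listed KRT8 pseudogenes summed to 7.83 to 10.32 FPKM per library and the 67 KRT18 pseudogenes to 0.65 to 1.15 FPKM, both small beside the levels of the genes themselves. How reads shared with these copies were assigned is not given in the sources used here.

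KRT80, a type II keratin found at desmosomes and keratin filaments, lay in the opposite direction to KRT23. It stood at 12.57, 8.08 and 9.37 FPKM in LV-NC against 6.3, 7.35 and 7.14 FPKM with LV-SNORA28. The values of the groups did not overlap, and the difference of -0.45 ± 0.15 (SE, 95% interval -0.82 to -0.09) did not pass (limma adjusted p = 0.111). Without LV-NC replicate 1, its highest library, the difference was -0.29.

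**Figure D3:**
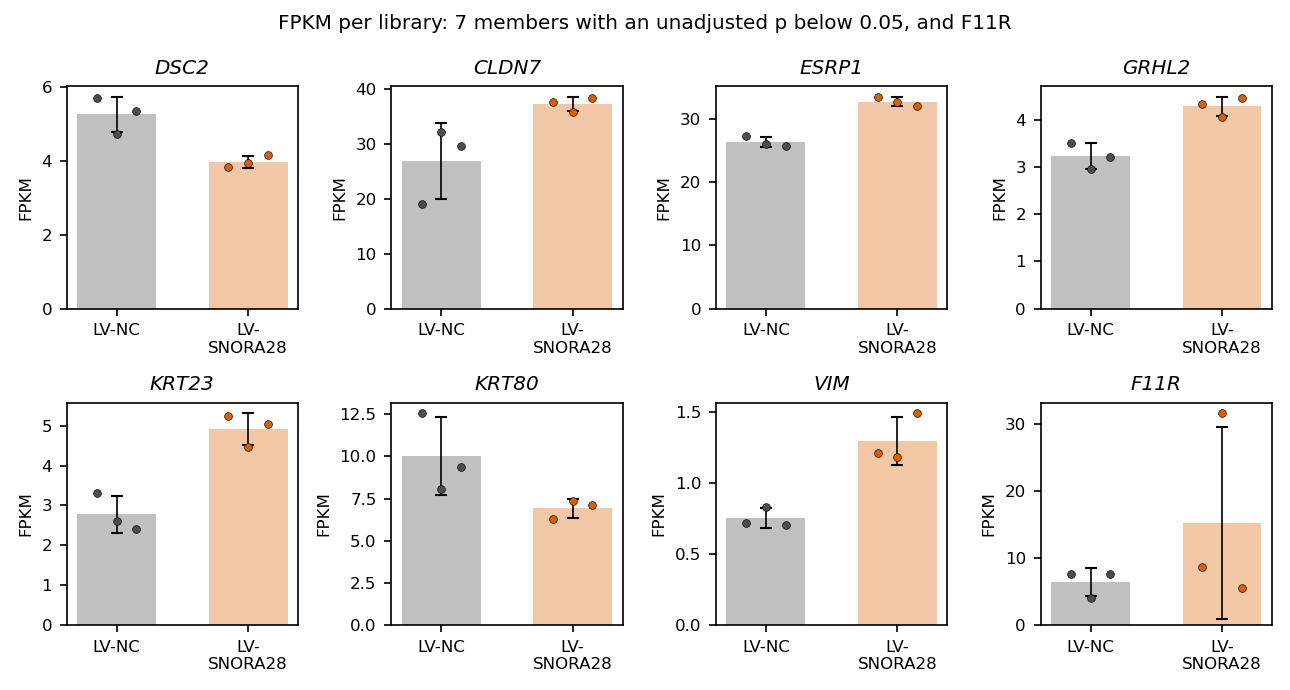
Each panel shows FPKM per library (points), the group mean (bar) and the SD (error bar, n = 3) for the 7 members with an unadjusted p below 0.05 and for F11R. The points of the groups are apart in the first 7 panels, with ESRP1 and KRT23 called at an adjusted p below 0.05, and F11R shows its 1 high library at 31.62 FPKM.

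The EMT factors were low, and SNAI1 was the one with a mean of at least 1 FPKM. SNAI1 (Snail), a zinc finger repressor of CDH1, stood at 8.65, 7.79 and 7.25 FPKM in LV-NC against 8.47, 7.51 and 8.05 FPKM with LV-SNORA28. The groups overlapped, and the difference was 0.02 (limma adjusted p = 0.902, interval -0.18 to 0.22). The related factor SNAI2 (Slug) had 0.15, 0.31 and 0.44 FPKM in LV-NC against 0.37, 0.43 and 0.42 FPKM with LV-SNORA28, also overlapping.

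ZEB1, a zinc finger homeobox repressor of epithelial genes, had 0.74, 0.65 and 0.63 FPKM in LV-NC against 0.5, 0.57 and 0.62 FPKM with LV-SNORA28. Its groups were apart by 0.01 FPKM, and in the fit of all genes above 0 the difference was -0.10 (limma adjusted p = 0.657). A pseudogene on its strand, SPTLC1P1, overlaps ZEB1 and had 0.74 to 6.91 FPKM. ZEB2 had 0.02, 0.01 and 0.01 FPKM in LV-NC against 0 in every LV-SNORA28 library. TWIST1, a basic helix-loop-helix factor, had 0.36 to 0.8 FPKM in LV-NC against 0.57 to 0.84 FPKM with LV-SNORA28. None of these 3 genes could carry a fold change with a known counting error, because read depth is unknown.

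Of the mesenchymal structural genes, CDH2 (N-cadherin) had 0 to 0.04 FPKM throughout. VIM, the intermediate filament gene of mesenchymal cells, stood at 0.72, 0.83 and 0.7 FPKM in LV-NC against 1.21, 1.18 and 1.49 FPKM with LV-SNORA28. Every LV-SNORA28 value was above every LV-NC value, and VIM passed the filter only through the LV-SNORA28 libraries. The difference of 0.39 ± 0.09 (SE, 95% interval 0.16 to 0.61) did not pass (limma adjusted p = 0.0522). Of 12 alternatives it passed in 1, without a trend of variance with expression (limma adjusted p = 0.0377). In the other 11 limma adjusted p was 0.0619 to 0.159, with 0.154 when no filter was applied. With a pseudocount of 0.1, VIM differed by 0.71 (limma adjusted p = 0.0619) and passed the study's threshold, which uses an unadjusted p. The level remained among the lowest tested, at rank 11999 of 12076. Neither of the 2 mesenchymal members tested was called, beside 8.91% of all genes.

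**Figure D4:**
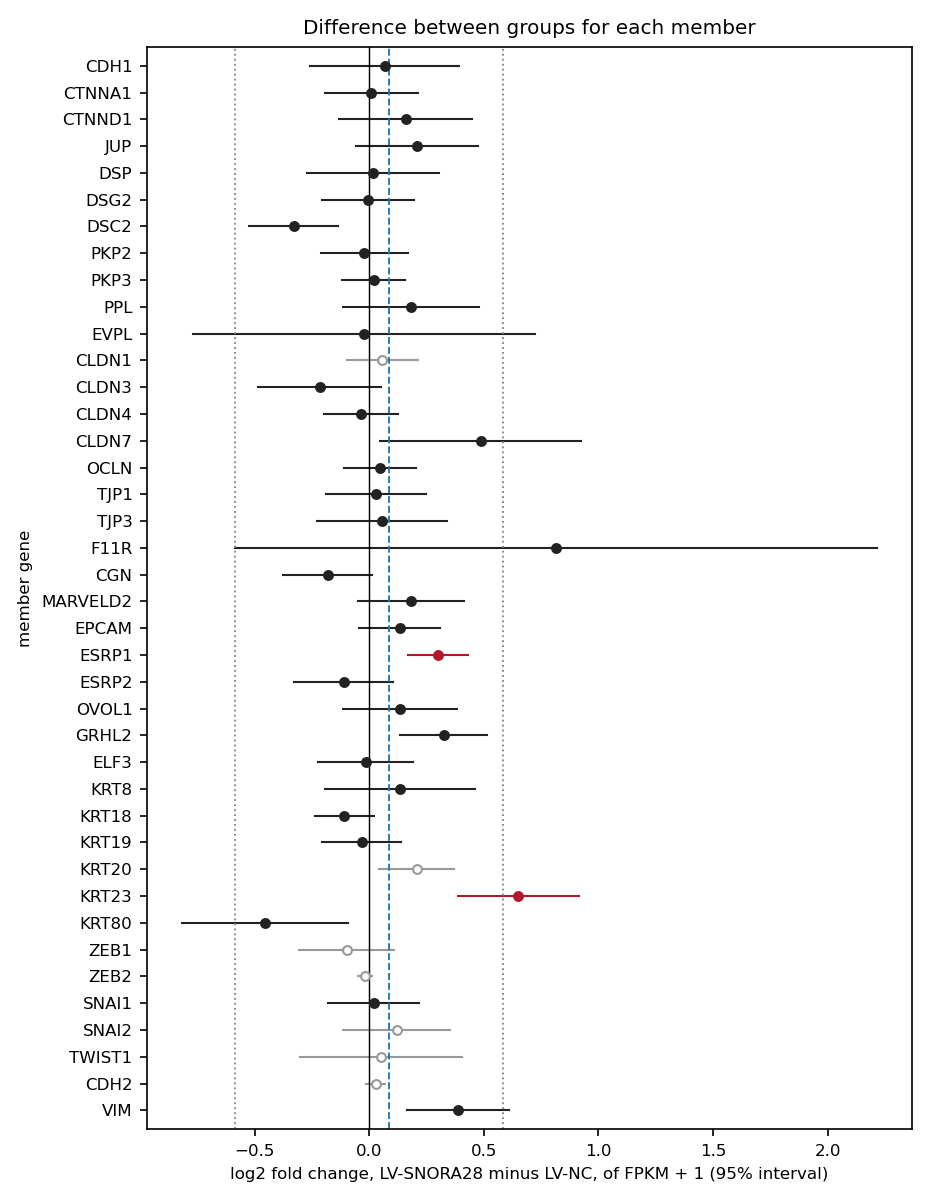
Each row is 1 of the 40 members, with its log2 fold change (LV-SNORA28 minus LV-NC, FPKM + 1) as a point and the 95% interval as a line. Red marks an adjusted p below 0.05 (ESRP1 and KRT23), open grey points are the 7 members below the filter as read from a fit of all genes above 0, dotted lines mark 1.5-fold in each direction, and the dashed line marks the median of all genes at 0.0851. Most intervals cross 0 and stay between the dotted lines, while those of F11R and EVPL are wide.

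Other genes of the same pathways, 87 in all and none of them members, moved in both directions. Of 49 with a mean of at least 1 FPKM, 6 rose and 4 fell (20.4% called, beside the 8.91% of all genes). The lists were chosen with earlier results of these data known, so this share is no result about the pathways. The 25 further junction genes tested held 1 that rose, PKP4 (plakophilin 4), from 6.55, 5.81 and 6.7 FPKM in LV-NC to 9.03, 8.25 and 8.81 FPKM in LV-SNORA28 (difference 0.40, limma adjusted p = 0.0281). They also held 1 that fell, the claudin gene CLDN15, from 5.72, 4.52 and 4.55 FPKM to 2.97, 3.03 and 3.49 FPKM (difference -0.51, limma adjusted p = 0.0359).

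Of the 4 further keratins tested, KRT7 was called lower and KRT10 higher. KRT15 and KRT81 were not called, at differences of -0.31 and -0.68 (limma adjusted p = 0.0835 and 0.0569), so 3 of the 4 differences lay below 0. KRT7, a type II keratin of ducts and glands, went from 19.42, 22.33 and 18.37 FPKM in LV-NC to 11.76, 12.24 and 8.92 FPKM in LV-SNORA28 (difference -0.82, limma adjusted p = 0.0177). KRT10, a type I keratin of differentiated epidermis, went from 5.58, 6.81 and 7.02 FPKM to 8.31, 10.92 and 10.16 FPKM (difference 0.53, limma adjusted p = 0.047). Within the keratins, then, the called members and non-members went both ways.

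Among the 12 further regulators and surface genes tested, KLF5 (a factor of proliferating crypt cells) rose by 0.38 and the surface glycoprotein gene CD24 by 0.40, and KLF4, a factor of differentiated intestinal cells, fell by 0.31 on the log2 scale. KLF5 stood at 13.18 to 14.2 FPKM in LV-NC against 17.96 to 18.32 FPKM in LV-SNORA28 (limma adjusted p = 0.0154). KLF4 stood at 8.86 to 9.48 FPKM and at 6.95 to 7.51 FPKM (limma adjusted p = 0.0356), and CD24 at 1.73 to 1.78 and at 2.35 to 2.84 FPKM (limma adjusted p = 0.0356).

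Of the 8 further EMT and mesenchymal genes tested, 2 rose and 1 fell (37.5% called, beside 8.91% of all genes). This list too was chosen with earlier results of these data known, so the share is no result about EMT genes. ACTA2, the smooth muscle actin gene, went from 2.66, 2.35 and 2.1 FPKM in LV-NC to 3.84, 3.67 and 3.46 FPKM in LV-SNORA28 (difference 0.47, limma adjusted p = 0.0273). The receptor tyrosine kinase gene AXL rose by 0.33 (limma adjusted p = 0.0442). S100A4, a calcium-binding protein gene often used as a mesenchymal marker, went from 180.73, 167.6 and 150.3 FPKM to 133.36, 126.55 and 130.44 FPKM (difference -0.35, limma adjusted p = 0.0447). The called EMT genes outside the member list did not share a direction. Of all 8 tested, 6 differences lay above 0 and 2 below, with a median of 0.267 beside 0.0851 over all genes tested. FN1, 1 of the 8, reached the filter only through the LV-SNORA28 libraries, with means of 0.94 FPKM in LV-NC and 1.35 FPKM in LV-SNORA28. In the fit of all genes above 0, the median of this list was 0.0871, beside 0.0188 over all genes of that fit. With any 1 library left out, limma adjusted p ranged from 0.0409 to 0.0527 for KRT7 and from 0.0327 to 0.0673 for KLF5, and each of the other 8 called genes lost its call in at least 5 of 6 such fits with its direction kept. With no filter on low genes, KLF5 alone of the 10 kept its call (limma adjusted p = 0.0313), and the other 9 ranged from 0.0538 for KRT7 to 0.118 for KRT10. Under quantile normalization, KRT10, CD24, AXL and S100A4 lost theirs. Scaling without mitochondrial genes ended the calls of KRT10 (0.0515), CD24 (0.0501) and AXL (0.0659), and a fit without the trend those of KRT10 (0.0523), AXL (0.0553) and S100A4 (0.0576), all as limma adjusted p.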

How the data were processed

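Per the labels, poly(A) RNA of 6 HCT116 libraries was made into strand-marked (dUTP) paired-end libraries. For each library the authors deposited a table of Ensembl identifiers and FPKM values with up to 2 decimals. The submitters' processing notes name cutadapt 1.9, HISAT2 2.2.1, StringTie 2.1.6, DESeq2, edgeR and build hg38, without role or order. The annotation release is not given in the sources used here. Read depth is unknown, so no counting interval was attached. FPKM is relative to all mapped fragments, so a change in abundant transcripts shifts every other gene.

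Symbols and coordinates came from GENCODE release 44 on GRCh38 (60401 of 60612 identifiers had a symbol), which may differ from the annotation used for the values. FPKM values were fitted as log2(FPKM + 1) for 12076 genes (mean over the 6 libraries of 1 FPKM or more), by group and without covariates, with limma 3.58.1 in R 4.3.3 (lmFit, then eBayes with a trend). Tests were two-sided with Benjamini-Hochberg adjustment over all genes tested. Count models were not run on these normalized values. The fit was tested on simulated data. Intervals are 95% from the moderated fit.

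Named genes were SNORA28, all 40 members and, of the other pathway genes, up to 5 per direction with the largest called difference and no overlap between groups. AXL is the sixth that rose and was named after its values were seen. The members and lists were chosen with earlier results of these data known. Same-numbered libraries were checked for pairing: the correlations of their deviations from the group means were -0.044, 0.091 and 0.0098 for replicates 1, 2 and 3, so the numbers were not used to pair libraries. Alternatives varied the pseudocount, the filter, the normalization, the trend, the block and the libraries.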

Additional observations from a re-analysis of the deposited data

How the results depend on the processing

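Depth is unknown, so the precision of low members such as VIM rests on the spread between 3 libraries per group. The fit gave 1076 called genes, 822 higher and 254 lower. Quantile normalization gave 451 higher and 375 lower and moved the median of all genes from 0.0851 to -0.0013 and that of the epithelial members from 0.0291 to -0.046. Called genes numbered 397 with no filter, 510 with the replicate block and 279 to 628 with 1 library left out. Genes at the study's threshold, with the fold taken on FPKM + 1, numbered 458. They numbered 263 at a mean of at least 5 FPKM, 771 with a pseudocount of 0.1 and 92 at 2-fold.

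Of the epithelial members, 2 were called, and 1 was called at 5 FPKM, with no filter and with the replicate block, and 0 to 2 with 1 library left out. Under the replicate block limma adjusted p was 0.0548 for ESRP1 and 0.0442 for KRT23. Of the 10 pathway genes called outside the members, the block ended the calls of CLDN15 (0.0816), KLF4 (0.0769), CD24 (0.0739), AXL (0.0925) and S100A4 (0.0708). With no filter limma adjusted p was 0.0616 for KRT23. Mesenchymal members called went from 0 to 1 (VIM) without the trend. The mesenchymal median of 0.204 over 2 genes was 0.020 at 5 FPKM, 0.028 over all 7 genes without a filter (chosen after seeing the data), 0.37 with a pseudocount of 0.1 and 0.12 under quantile normalization. Members at the study's threshold (1) numbered 0 at 5 FPKM and under quantile normalization, 2 with a pseudocount of 0.1, and 0 to 2 with 1 library left out. With an interval limit of 2-fold, also chosen after seeing the data, 32 of 33 members lay inside.

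Uncalled members with differences near 0 changed sign. Under quantile normalization CDH1 was -0.024, CTNNA1 -0.046, DSP -0.060, PKP3 -0.070, OCLN -0.050, TJP1 -0.059, TJP3 -0.038, KRT19 0.023 and SNAI1 -0.071. Scaled without mitochondrial genes, CTNNA1 was -0.017, DSP -0.011, PKP3 -0.0070 and SNAI1 -0.0043. With 1 library left out, the ranges were -0.079 to 0.19 for CDH1, -0.048 to 0.090 for CTNNA1, -0.11 to 0.11 for DSP, -0.080 to 0.041 for DSG2, -0.083 to 0.015 for PKP2, -0.0043 to 0.053 for PKP3, -0.37 to 0.16 for EVPL, -0.092 to 0.0022 for CLDN4, -0.057 to 0.090 for TJP1, -0.057 to 0.17 for TJP3, -0.074 to 0.050 for ELF3, -0.028 to 0.24 for KRT8, -0.074 to 0.015 for KRT19 and -0.033 to 0.080 for SNAI1. The causes were not tested. SNORA28 was past the threshold in 13 of 13 alternatives. The edgeR fit planned for the case of count tables was not run because the values are FPKM.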

Other observations

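Summed over the 10 type I keratins among the members and the further keratins, the level was 555, 595 and 548 FPKM in LV-NC and 545, 575 and 528 FPKM in LV-SNORA28. The 7 type II keratins summed to 142, 180 and 186 FPKM in LV-NC and to 168, 167 and 165 FPKM in LV-SNORA28. Both sums overlapped between the groups, although KRT7, KRT10 and KRT23 were each called. KRT19 and KRT18 made most of the type I sum, at means of 381 and 158.9 FPKM, and KRT8 most of the type II sum, at 141.6 FPKM. The overlap therefore says little about the called keratins.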
